A study of Rattus norvegicus with 12 samples.

Results

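The genes described here are the laminin chains and the proteins that link laminin to the rest of the basement membrane, measured by RNA sequencing in cultured cardiac fibroblasts of newborn rats after knockdown of Yap, Wwtr1 or both. The members were listed by name: the laminin chain genes Lama2, Lama4, Lama5, Lamb1, Lamb2 and Lamc1, the nidogen genes Nid1 and Nid2, and the proteoglycan genes Hspg2 (perlecan) and Agrn (agrin). Of the 10 listed genes, 6 were in the table of 12271 genes (Lama4, Lama5, Lamb2, Lamc1, Nid2 and Agrn) and all 6 were tested. Lama2, Lamb1, Nid1 and Hspg2 were not analysed here. The rule is this list of names, which was drawn up with earlier results of these data known.

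The cells were primary cardiac fibroblasts from Sprague Dawley rats at postnatal day 2. One group received a universal negative control siRNA, one received siRNA against Yap, one received siRNA against Wwtr1, and one received both (the double knockdown). Transfection was with 25 nM siRNA. Whether this was per gene or in total for the double knockdown was not settled here. Per the labels the harvest came 48 hours after transfection, whereas the study's methods count that time from a later change of medium. The 4 groups had 3 libraries each, 12 in all. Per the study's methods the whole procedure was run again on other litters for each replicate, so a library is a pool of animals, and libraries of one number in different groups may share litters. For the double knockdown the siRNA field of the labels lists Wwtr1 siRNAs alone, whereas the titles name both genes. Values are normalized counts, that is, counts divided by a size factor for each library. In bulk RNA, fewer cells of a type and less RNA per cell cannot be told apart.

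A basement membrane is a thin sheet of matrix that lies against cells. Laminins are trimers of an α, a β and a γ chain that bind receptors at the cell surface and assemble into a network. Nidogens bridge the laminin network to collagen IV, and agrin and perlecan are heparan sulfate proteoglycans that tie laminin to the dystroglycan receptor and to growth factors. Yap, encoded by Yap1, and its relative Wwtr1, often named Taz, are coactivators that bind DNA through TEAD factors. In the heart, basement membrane surrounds cardiomyocytes and vessels, and fibroblasts are among the cells that supply its chains.

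The promoters of the members with a difference between the single knockdowns, Lamc1 and Lama4, are shown because their transcripts separated the Yap and Wwtr1 siRNA groups. The sequences are from RefSeq assembly GRCr8, cover the 250 bases before the annotated gene start and read 5′ to 3′ on the gene's strand. Capitals mark the core TEAD motif, searched as GGAATG on both strands, so that it can read CATTCC. The deposited values were made on another build (rn6), from which no coordinates are given. The Lamc1 window is chr13:68051987-68052236 (minus strand) and the Lama4 window is chr20:43946648-43946897 (plus strand).
Lamc1: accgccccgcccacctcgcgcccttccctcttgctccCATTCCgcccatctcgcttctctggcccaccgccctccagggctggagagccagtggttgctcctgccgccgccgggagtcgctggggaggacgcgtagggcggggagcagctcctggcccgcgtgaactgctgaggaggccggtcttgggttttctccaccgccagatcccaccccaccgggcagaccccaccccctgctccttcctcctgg
Lama4: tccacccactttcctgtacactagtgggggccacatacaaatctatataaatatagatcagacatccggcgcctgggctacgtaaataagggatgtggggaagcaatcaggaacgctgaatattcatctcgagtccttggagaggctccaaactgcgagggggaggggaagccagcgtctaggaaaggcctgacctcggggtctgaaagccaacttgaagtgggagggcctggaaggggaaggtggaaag
Of the 6 members tested, 4 had a window in the RefSeq table (Lama4, Lama5, Lamc1 and Agrn). The Lamc1 window held 1 match, which started 213 bases before the gene start on the opposite strand, and the windows of Lama4, Lama5 and Agrn held none. Of 27457 rat promoter windows of the same length, 11.8% held the motif. The AP-1 motif TGANTCA, which equals its own reverse complement, was in none of the 4 windows and in 6.36% of all windows. The windows were rich in G and C, from 53.2% in Lama4 and 60.4% in Agrn to 71.2% in Lamc1 and 72.8% in Lama5. A match is a string of letters and was not tested as a binding site.

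The targeted genes were examined first. With Yap siRNA, Yap1 fell to 532, 576 and 625 normalized counts, from 3042, 3776 and 2984 with negative siRNA. With Wwtr1 siRNA, Wwtr1 fell to 524, 550 and 637, from 2364, 2565 and 2280. In the double knockdown Yap1 was 713, 739 and 1474 and Wwtr1 was 818, 731 and 1056 in replicates 1, 2 and 3, so both were highest in replicate 3. That library also differed most from its own group, with a chi-square per gene, steps of the values taken as counts, of 122 and 126 against the other double knockdown libraries, while all other pairs within a group were at most 50.7. Wwtr1 was higher in the double knockdown than with Wwtr1 siRNA alone by 0.59 on the log2 scale (adjusted p 0.00804 by limma), and the difference of Yap1 from Yap siRNA alone was 0.67 (adjusted p 0.0623 by limma), both without overlap. The depth of knockdown therefore differed between the double and the Wwtr1 single knockdown, and its part in the interactions and in the comparisons of the double with a single knockdown was not tested. Calls of the members in the double knockdown are given with and without replicate 3, and so are those of the other leading genes.

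The markers of cardiac fibroblasts were present in every library (Col1a1 and Col1a2, the chains of collagen I, led them), with summed levels of 2687000 to 3889000 normalized counts. Smooth muscle and pericyte markers (8 genes, led by Pdgfrb and Notch3) summed to 87080 to 138000, cardiomyocyte markers (8 genes, led by Tnnt2 and Myh6) to 35040 to 77240, and macrophage markers (6 of 7 genes, led by Cd68 and Csf1r) to 3149 to 21170. Mesothelial and epicardial markers (4 of 6 genes, led by Tbx18 and Wt1) summed to 2451 to 3590, endothelial markers (10 genes, led by Tek and Tie1) to 1258 to 2971, and Schwann cell markers (3 genes, led by Sox10 and S100b) to 63.7 to 439. No listed marker in the table was at 0 in all 12 libraries. The labelled cell type thus had its markers, and muscle markers were present beside them.

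Differences were tested with limma on log2(normalized count + 1) over 11871 genes, with 95% intervals from the same fit and p-values adjusted by the Benjamini-Hochberg method over all genes tested. A gene is said to have changed where the adjusted p was under 0.05. All 3 comparisons with negative siRNA share the same negative libraries, and comparisons that share a group are therefore not independent.

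Lamc1, the laminin γ1 chain found in most laminin trimers, moved in opposite directions in the single knockdowns. It was 55672.5, 58135 and 59453 normalized counts in negative siRNA replicates 1, 2 and 3. With Yap siRNA it was 35660, 44615 and 46272, all below the lowest negative library. With Wwtr1 siRNA it was 73598, 79524 and 81456, all above the highest negative library. In the double knockdown it was 66090, 63569 and 54014, which spans the negative range.

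The Lamc1 log2 difference was -0.46 with Yap siRNA (SE 0.11, 95% interval -0.70 to -0.23, adjusted p 0.0354 by limma), a ratio of 0.726. It was 0.44 with Wwtr1 siRNA (SE 0.11, 95% interval 0.20 to 0.67, adjusted p 0.0269 by limma), a ratio of 1.35. In the double knockdown it was 0.08 with a 95% interval of -0.16 to 0.31 (adjusted p 0.611 by limma), and without double knockdown replicate 3 it was 0.17 (adjusted p 0.247 by limma). The Yap siRNA call was lost without negative replicate 1, 2 or 3, without Yap replicate 1 or 2 and without Wwtr1 replicate 2, at log2 differences of -0.51 to -0.35 and limma adjusted p of 0.0585 to 0.129. It was also lost with no mean-variance trend in the fit (adjusted p 0.0647) and in a fit of the 2 compared groups alone (0.0514). The Wwtr1 siRNA call was lost when any library of negative or Wwtr1 siRNA was left out, at log2 differences of 0.41 to 0.48 and adjusted p of 0.0504 to 0.0946.

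The groups of the single knockdowns themselves differed most clearly in Lamc1. The level with Yap siRNA, 42182 ± 5709 (SD, n = 3), was below that with Wwtr1 siRNA, 78193 ± 4095, by 0.90 on the log2 scale (difference -0.90, SE 0.11, 95% interval -1.13 to -0.66, adjusted p 0.000867 by limma). This call held in every alternative tried, with log2 differences from -0.97 to -0.78. The double knockdown mean, 61224 ± 6370, lay between them. It was above Yap siRNA by 0.54 (SE 0.11, adjusted p 0.00738 by limma), a call lost in a fit of the compared groups alone (adjusted p 0.0543) and kept without double knockdown replicate 3 (0.63, adjusted p 0.00308). It was below Wwtr1 siRNA with a difference of -0.36 (SE 0.11, adjusted p 0.0365 by limma), which was lost without negative replicate 2, Wwtr1 replicate 2 or 3, or double knockdown replicate 2 or 3 (log2 differences -0.39 to -0.27, adjusted p 0.0505 to 0.117). The groups did not overlap in any of these 5 comparisons, and overlapped between the double knockdown and negative siRNA.

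The summed level of smooth muscle and pericyte markers, led by Pdgfrb and Notch3, had the same order as Lamc1 in the single knockdowns. It was 97510 to 105700 normalized counts with negative siRNA, 87080 to 91900 with Yap siRNA, 134600 to 138000 with Wwtr1 siRNA and 94410 to 117400 in the double knockdown. Most of this sum is Pdgfrb, at 60220 to 75291 with negative siRNA, and not every listed marker had that order. With Yap siRNA, Abcc9 was 742 to 994 against 387 to 629 with negative siRNA. Kcnj8 was 95.3 to 157 against 65.7 to 87.9, and neither was called. Of the 8 markers, 1 fell with Yap siRNA (Notch3, a receptor of pericytes, log2 difference -0.73, adjusted p 0.0225 by limma) and 1 rose with Wwtr1 siRNA (Pdgfrb, a growth factor receptor that fibroblasts also express, log2 difference 0.40, adjusted p 0.0335 by limma), with list medians of -0.09 and 0.24. Each is 12.5% of the list in a single gene, where 4.8% and 8.96% of all genes were called. In the double knockdown, where 32.8% of all genes were called and Lamc1 was not, 3 of the 8 rose and 1 fell. Abcc9 and Kcnj8, subunits of a potassium channel of pericytes, rose by 1.91 (adjusted p 0.000218 by limma) and 1.86 (adjusted p 0.00238 by limma), Rgs5 rose by 0.98 (adjusted p 0.0056 by limma) and Notch3 fell by 0.81 (adjusted p 0.00179 by limma). The names are given because the counts are small. The part of these markers in the Lamc1 levels was not tested.

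**Figure D1:**
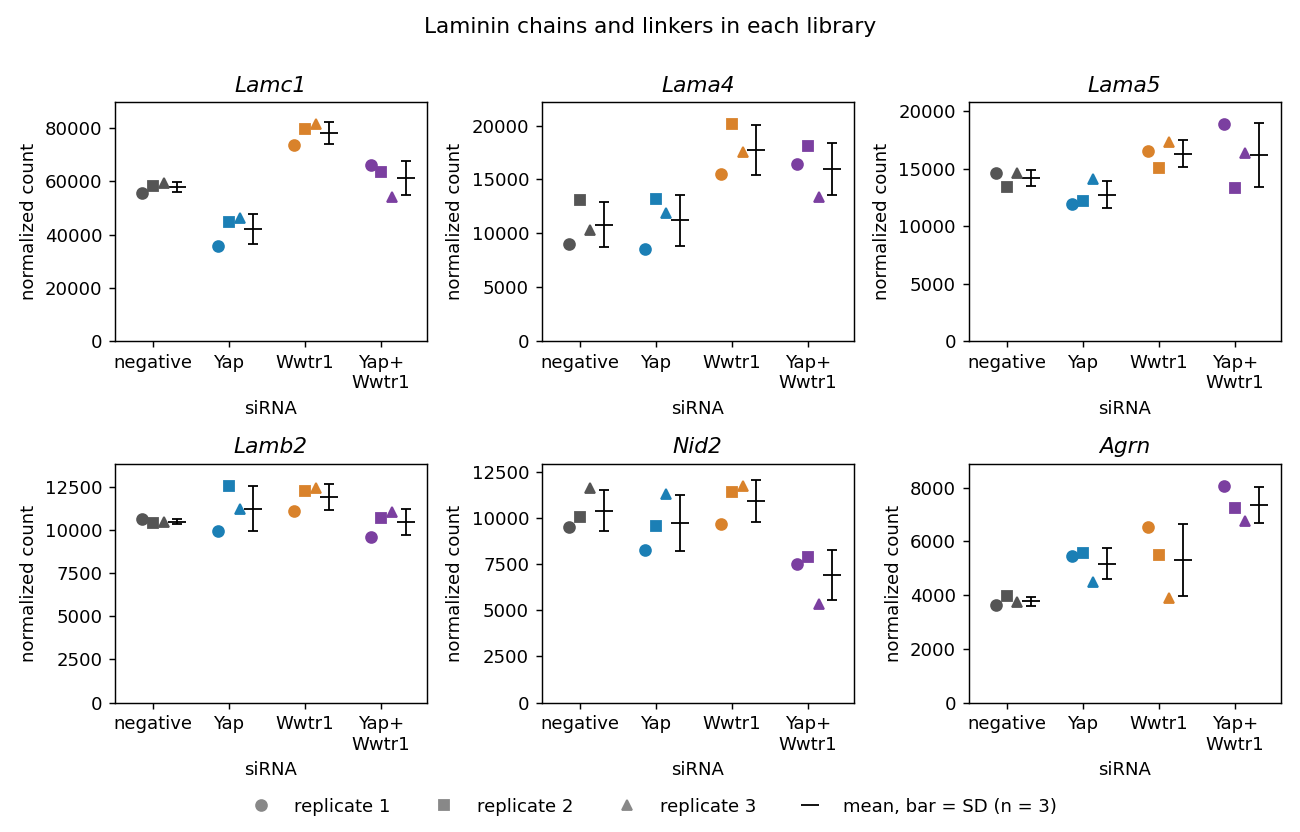
Normalized counts (vertical axes, from 0) of the 6 members in each of the 12 libraries, by siRNA group (horizontal axes). Symbols mark the replicate numbers, and the black dash with its bar is the mean with SD (n = 3). Lamc1 is lowest with Yap siRNA and highest with Wwtr1 siRNA, Nid2 is lowest and Agrn highest in the double knockdown.

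Lama4, the laminin α4 chain of vessel and mesenchymal basement membranes, was higher wherever Wwtr1 siRNA had been given. Negative siRNA libraries had 9006, 13090 and 10308 normalized counts and Yap siRNA libraries 8514, 13165 and 11888, groups that overlapped. With Wwtr1 siRNA it was 15463, 20127 and 17582, and in the double knockdown it was 16409, 18110 and 13333. Every library that had received Wwtr1 siRNA was above every library that had not.

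The Lama4 log2 difference from negative siRNA was 0.72 with Wwtr1 siRNA (SE 0.18, 95% interval 0.33 to 1.12, adjusted p 0.0288 by limma) and 0.57 in the double knockdown (SE 0.18, 95% interval 0.18 to 0.96, adjusted p 0.0307 by limma), ratios of 1.65 and 1.48. With Yap siRNA it was 0.04 (95% interval -0.35 to 0.44, adjusted p 0.926 by limma). Yap siRNA was below Wwtr1 siRNA with a difference of -0.68 (SE 0.18, adjusted p 0.0386 by limma). Between the double knockdown and Yap siRNA the difference of 0.52 missed the threshold (95% interval 0.13 to 0.92, adjusted p 0.0763 by limma). It passed without double knockdown replicate 3 (0.65, adjusted p 0.0385 by limma) and with the replicate number as a block over all 12 libraries (adjusted p 0.0137 by limma). Between the double knockdown and Wwtr1 siRNA it was -0.16 (95% interval -0.55 to 0.24, adjusted p 0.594 by limma).

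The Lama4 calls depended on single libraries. The call with Wwtr1 siRNA was lost without negative replicate 1 or 3 or Wwtr1 replicate 2 or 3 (log2 differences 0.60 to 0.73, adjusted p 0.0673 to 0.115). That of the double knockdown was lost without negative replicate 1 or 3 or double knockdown replicate 1 or 2 (log2 differences 0.45 to 0.54, adjusted p 0.0789 to 0.113), and without double knockdown replicate 3 it was 0.69 (adjusted p 0.015 by limma). The difference between Yap and Wwtr1 siRNA was lost without negative replicate 3, Yap replicate 1 or 3, or Wwtr1 replicate 2 or 3 (log2 differences -0.735 to -0.494, adjusted p 0.0528 to 0.142). With no trend in the fit all 3 missed the threshold (adjusted p 0.0595, 0.056 and 0.0724). The endothelial marker sum was also higher in the double knockdown, 2109 to 2971 normalized counts against 1258 to 1676 with negative siRNA, 1785 to 2089 with Yap siRNA and 1686 to 1791 with Wwtr1 siRNA. Its leading gene Tek, a receptor of vessel lining cells, was the 1 of 10 endothelial markers that rose with Wwtr1 siRNA (log2 difference 0.71, adjusted p 0.03 by limma), a share of 10% near the 8.96% of all genes, where the second, Tie1, was at -0.40 (adjusted p 0.573 by limma). Tek rose by 0.71 in the double knockdown too (adjusted p 0.00999 by limma). The part of these markers in the Lama4 levels was not tested.

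Lama5, the α5 chain of most mature epithelial and vessel basement membranes, did not pass the test in any comparison. Negative siRNA libraries had 14601, 13393 and 14600 normalized counts and Yap siRNA libraries 11971, 12159 and 14066. It was 16504, 15100 and 17351 with Wwtr1 siRNA, all above the negative libraries, and 18878, 13345 and 16338 in the double knockdown, which overlapped them. The widest difference was that of Yap from Wwtr1 siRNA, -0.36 (SE 0.11, 95% interval -0.61 to -0.11, adjusted p 0.0729 by limma), and these 2 groups did not overlap. It passed in a fit of the compared groups alone (adjusted p 0.0421 by limma) and without double knockdown replicate 1 or 2 (adjusted p 0.04 by limma and 0.0332).

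The replicate numbers of the negative, Yap and Wwtr1 siRNA libraries marked libraries that deviated together, and a fit of those 9 libraries with the replicate number as a block gave Lama5 further calls. In it Lama5 rose with Wwtr1 siRNA (0.20, adjusted p 0.026 by limma) and was lower with Yap than with Wwtr1 siRNA (-0.36, adjusted p 0.00123 by limma). Without double knockdown replicate 2 its log2 difference from negative siRNA in the double knockdown passed too (0.31, adjusted p 0.0403 by limma, against 0.18 and 0.261 with all libraries), and so did its difference from Yap siRNA (0.47 and 0.016, against 0.34 and 0.0723). With the replicate block over all 12 libraries Lama5 passed between the double knockdown and Yap siRNA (adjusted p 0.0308 by limma) and between Yap and Wwtr1 siRNA (0.0337).

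Lamb2, the β2 chain known from muscle synapses and the kidney filter, did not pass the test in any comparison either. Negative siRNA libraries had 10620, 10384 and 10458 normalized counts, Yap siRNA libraries 9947, 12563 and 11195, Wwtr1 siRNA libraries 11074, 12261 and 12458, and double knockdown libraries 9593, 10701 and 11064. Every Wwtr1 siRNA library was above every negative and every double knockdown library. The log2 differences from negative siRNA were 0.09 with Yap siRNA (95% interval -0.10 to 0.28), 0.18 with Wwtr1 siRNA (95% interval -0.01 to 0.38) and -0.01 for the double knockdown (95% interval -0.20 to 0.18), at limma adjusted p of 0.613, 0.228 and 0.963. No interval against negative siRNA reached past 0.38 from 0 on the log2 scale.

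Nid2 (nidogen-2), which bridges laminin to collagen IV, was lower in the double knockdown alone among the calls. Negative siRNA libraries had 9491, 10052 and 11613 normalized counts, Yap siRNA libraries 8266, 9548 and 11280, and Wwtr1 siRNA libraries 9640, 11385 and 11738, ranges that overlapped. In the double knockdown it was 7489, 7868 and 5340, and every one of these libraries was below every library of the other 3 groups. The lowest value was that of replicate 3.

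The Nid2 log2 difference of the double knockdown was -0.61 from negative siRNA (SE 0.15, 95% interval -0.94 to -0.27, adjusted p 0.0102 by limma) and -0.68 from Wwtr1 siRNA (SE 0.15, 95% interval -1.01 to -0.34, adjusted p 0.00983 by limma), ratios of 0.657 and 0.625. Both held in every alternative tried. Without double knockdown replicate 3 they were -0.43 (adjusted p 0.0246 by limma) and -0.50 (adjusted p 0.0212 by limma). From Yap siRNA the difference was -0.50 (adjusted p 0.0497 by limma), which missed the threshold in 15 of 21 alternatives, among them without any one of 10 libraries (log2 differences -0.57 to -0.33, adjusted p 0.0539 to 0.189) and with the replicate block (adjusted p 0.0507). It was called without Yap replicate 1 or double knockdown replicate 2. The single knockdowns gave -0.11 for Yap siRNA (95% interval -0.44 to 0.23, adjusted p 0.763 by limma) and 0.07 for Wwtr1 siRNA (95% interval -0.26 to 0.41, adjusted p 0.822 by limma). In the blocked fit of 9 libraries Nid2 was lower with Yap than with Wwtr1 siRNA (-0.18, adjusted p 0.0448 by limma).

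Agrn (agrin), a proteoglycan that binds laminin and dystroglycan and clusters receptors at the nerve-muscle synapse, had the highest levels in the double knockdown. It was 3627, 3952 and 3738 normalized counts in the negative siRNA libraries and 8072, 7245 and 6767 in the double knockdown. With Yap siRNA it was 5457, 5565 and 4494, all above the negative libraries. With Wwtr1 siRNA it was 6529, 5491 and 3894, and the last of these lay within the negative range. The double knockdown libraries were above all others.

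The Agrn log2 difference of the double knockdown from negative siRNA was 0.96 (SE 0.16, 95% interval 0.62 to 1.30, adjusted p 0.000709 by limma), a ratio of 1.95. It held in every alternative, from 0.89 to 1.02, and was 1.02 without double knockdown replicate 3 (adjusted p 0.00104 by limma). With Yap siRNA it was 0.45 (95% interval 0.11 to 0.79, adjusted p 0.129 by limma) and with Wwtr1 siRNA 0.46 (95% interval 0.12 to 0.80, adjusted p 0.0902 by limma), neither past the threshold. In the blocked fit of 9 libraries both passed (adjusted p 0.019 by limma with Yap siRNA and 0.0135 with Wwtr1 siRNA). With Yap siRNA it also passed in a fit of the compared groups alone (adjusted p 0.0374 by limma). Without Wwtr1 replicate 3 both passed as well (log2 differences 0.45 and 0.67, adjusted p 0.0349 by limma and 0.00641).

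Agrn in the double knockdown was also above each single knockdown, by 0.51 over Yap siRNA (95% interval 0.17 to 0.85, adjusted p 0.0478 by limma) and by 0.50 over Wwtr1 siRNA (95% interval 0.16 to 0.84, adjusted p 0.0405 by limma). These calls were close to the threshold, and without double knockdown replicate 3 they were 0.57 (adjusted p 0.0444 by limma) and 0.56 (adjusted p 0.0426 by limma). That over Yap siRNA was kept in 10 of 21 alternatives and lost without any negative library, any Yap siRNA library, Wwtr1 replicate 2 or double knockdown replicate 1 or 2 (log2 differences 0.41 to 0.57, adjusted p 0.0621 to 0.179), and also with TMM scaling (adjusted p 0.0505 by limma) and with no trend (0.0846). That over Wwtr1 siRNA was kept in 11 of 21 and lost without any negative library, Yap replicate 2, Wwtr1 replicate 2 or 3 or double knockdown replicate 1 or 2 (log2 differences 0.29 to 0.54, adjusted p 0.0505 to 0.126), and also with the compared groups alone (0.104) and with no trend (0.0714). The difference between the single knockdowns was -0.01 (95% interval -0.35 to 0.33).

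Marker lists of other cell types in the double knockdown are given beside Nid2 and Agrn, against 32.8% of all genes called. Of 10 endothelial markers 5 rose and 0 fell by limma, with the sums given beside Lama4. Of 8 smooth muscle and pericyte markers 3 rose and 1 fell, as given beside Lamc1. Of 8 cardiomyocyte markers 2 rose (25%, below the share of all genes), Myh6 (1.83, adjusted p 0.00206 by limma) and Tnni3 (1.12, adjusted p 0.0268 by limma). The sum of the 8 was 59030 to 77240 normalized counts against 35040 to 60180 with negative siRNA, 43150 to 69860 after Yap siRNA and 37890 to 68960 after Wwtr1 siRNA. Of 6 macrophage markers 0 passed by limma (1 at an unadjusted p under 0.05), and their sum spread over 3149 to 21170 in the double knockdown, against 9605 to 13550, 8254 to 12520 and 5627 to 8683 in the same order. The leading macrophage genes were highest in double knockdown replicate 3. In replicates 1, 2 and 3 Cd68 was 1598, 3238 and 8673, against 2839 to 4758 with negative siRNA. Csf1r was 786, 1801 and 6407, against 3378 to 4392. Of 4 mesothelial and epicardial markers Tbx18 rose (0.29, adjusted p 0.00696 by limma) and Msln fell (-1.62, adjusted p 0.0118 by limma), and of 3 Schwann cell markers S100b rose (1.39, adjusted p 0.0169 by limma). Of 11 fibroblast markers 4 rose and 3 fell. The part of these markers in the Nid2 and Agrn differences was not tested.

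**Figure D2:**
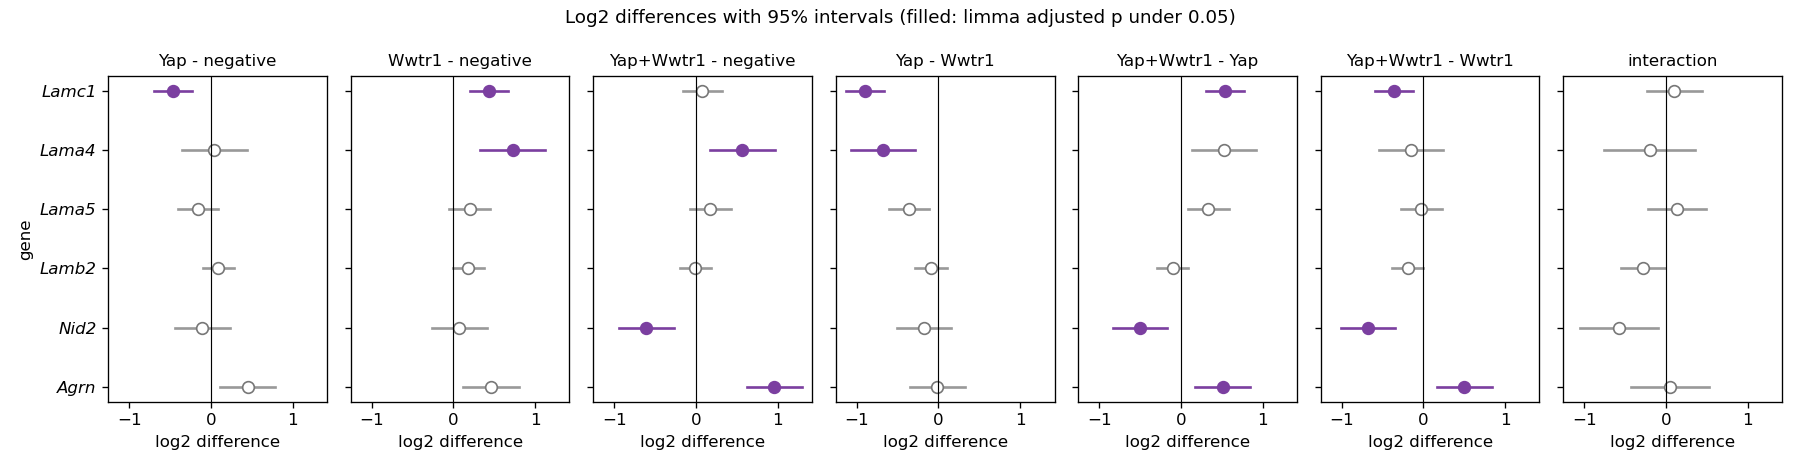
Log2 differences (horizontal axes) of the 6 members (rows) in the 6 comparisons of a pair of groups and the interaction, with 95% intervals from limma. Filled symbols have an adjusted p under 0.05. Lamc1 lies on opposite sides of 0 with Yap and Wwtr1 siRNA, Nid2 and Agrn are called in opposite directions in each comparison that holds the double knockdown, and no member is called in the interaction.

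The counts of members called are read against the share of all genes called. With Yap siRNA 1 of 6 members changed (Lamc1, lower), where 4.8% of all genes changed, 3.02% higher and 1.78% lower. With Wwtr1 siRNA 2 changed (Lama4 and Lamc1, both higher), where 8.96% of all genes changed, 5% higher and 3.96% lower. In the double knockdown 3 changed (Lama4 and Agrn higher, Nid2 lower), where 32.8% of all genes changed, 17.1% higher and 15.6% lower. The median log2 difference of the 6 members was -0.03 after Yap siRNA, 0.32 after Wwtr1 siRNA and 0.13 for the double knockdown, beside medians over all genes tested of -0.004, 0.005 and 0.004.

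Between Yap and Wwtr1 siRNA 2 members differed (Lama4 and Lamc1, both lower with Yap siRNA), where 8.79% of all genes differed, 4.57% higher and 4.22% lower. Between the double knockdown and Yap siRNA 3 differed (Lamc1 and Agrn higher, Nid2 lower), against 13.8% of all genes, 6.83% higher and 6.96% lower. Between the double knockdown and Wwtr1 siRNA 3 differed (Agrn higher, Lamc1 and Nid2 lower), against 19.9% of all genes, 9.75% higher and 10.1% lower. With 6 members, 1 gene moves such a share by a large step. The blocked fit of 9 libraries called 2 with Yap siRNA (Lamc1 and Agrn), 4 with Wwtr1 siRNA (Lama4, Lama5, Lamc1 and Agrn) and 4 between them (Lama4, Lama5, Lamc1 and Nid2). In that fit 16.3%, 21.7% and 23% of all 11795 genes tested were called in the same 3 comparisons.

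The interaction asked whether the double knockdown differed, in log2 units, from what both single effects added up to. By limma, 0 of 6 members passed, against 1.03% of all genes (122 genes, 0.421% higher and 0.607% lower), and 2 members had an unadjusted p under 0.05. These were Nid2, with an interaction of -0.57 (95% interval -1.05 to -0.10, adjusted p 0.252 by limma), and Lamb2, with -0.28 (95% interval -0.56 to -0.01, adjusted p 0.324 by limma). For Agrn the interaction was 0.05 (95% interval -0.43 to 0.53, adjusted p 0.947 by limma) and for Lamc1 it was 0.11 (95% interval -0.23 to 0.44, adjusted p 0.822 by limma). For Lama4 it was -0.20 (95% interval -0.76 to 0.36) and for Lama5 0.14 (95% interval -0.22 to 0.49).

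The genes whose log2 levels followed Agrn most closely over the 12 libraries were Nampt (Pearson r 0.982), Etnk1 (0.98), Tapbpl (0.975), Znfx1 (0.974) and Tmem140 (0.972), out of 10101 genes with a mean of at least 100. The libraries share their groups, so these values describe the group means as much as single libraries. Tmem140 and Znfx1 had larger double knockdown differences than Agrn (log2 2.85 and 2.50), and Etnk1 a smaller one (0.77). Tapbpl was 595 to 691 normalized counts with negative siRNA and 2090 to 2434 in the double knockdown. Nampt was 1115 to 1273 and 2401 to 2536 in the same groups.

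Counts of the lists that follow stand beside the share of all genes called, namely 32.8% for the double knockdown, 8.96% for Wwtr1 siRNA and 4.8% for Yap siRNA. Of 5 laminin chains considered outside the members, 4 were in the table and 2 rose in the double knockdown, with no chain lower. Lamb3, the β3 chain of epithelial anchoring laminin, was 164, 130 and 61.0 normalized counts in the negative siRNA libraries and 186, 270.1 and 297 in the double knockdown, without overlap. Its log2 difference was 1.16 (SE 0.37, adjusted p 0.029 by limma). Lama1, the α1 chain of early embryonic basement membrane, rose by 1.20 (adjusted p 0.0307 by limma) from 43.4 to 54.4 normalized counts to 72.7 to 171. It was outside the naming rule and is named because the count is small. Neither passed by limma without negative replicate 3 or without double knockdown replicate 3, and leaving out each library gave counts of 0 to 2. The Lamb3 call was lost without negative replicate 3 or double knockdown replicate 2 or 3 (log2 differences 0.75 to 1.10, adjusted p 0.0711 to 0.117). In the single knockdowns 0 of these 4 chains passed by limma, with 1 at an unadjusted p under 0.05 for each siRNA. Lamb3 had a log2 difference of 1.25 with Wwtr1 siRNA (adjusted p 0.0539 by limma), without overlap with negative siRNA, and without double knockdown replicate 3 the count with Wwtr1 siRNA was 1.

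Other basement membrane components shifted in both directions in the double knockdown. Of 31 listed genes, 23 were tested, 9 rose and 4 fell, with a median log2 difference of 0.64. Without double knockdown replicate 3, 9 rose and 3 fell. The largest rises were in Fbln1 (fibulin-1, a laminin-binding glycoprotein, 2.43, adjusted p 0.00282 by limma), Frem2 (2.22, adjusted p 0.00235 by limma), Ntn1 (netrin-1, a laminin-related guidance protein, 1.69, adjusted p 0.00152 by limma) and Col7a1 (anchoring fibril collagen, 1.42, adjusted p 0.00057 by limma). Fbln1 was 9939, 9309 and 33023 normalized counts in double knockdown replicates 1, 2 and 3 against 1509 to 3845 with negative siRNA, and 1.83 without replicate 3 (adjusted p 0.00433 by limma).

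Fras1, whose protein forms a complex with Frem2 under epithelia, fell in the double knockdown. It was 1386, 1822 and 1661 normalized counts in the negative siRNA libraries and 828, 404 and 410 in the double knockdown, a log2 difference of -1.64 (SE 0.24, adjusted p 0.000365 by limma). Fbln5 (fibulin-5, an elastic fibre protein, -0.96, adjusted p 0.00141 by limma) and Pxdn (peroxidasin, which cross-links collagen IV, -0.54, adjusted p 0.0101 by limma) fell as well. Frem2 and Fras1, partners in one complex, changed in opposite directions. Frem2 had low values, 32.0 to 92.0 normalized counts with negative siRNA and 231 to 312 in the double knockdown.

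Among the collagens that nidogen-2 and the laminins adjoin, Col4a1 (a collagen IV chain) fell by 0.40 on the log2 scale in the double knockdown (adjusted p 0.0439 by limma). This call was lost without any one of 9 libraries, all but Yap replicate 1 and Wwtr1 replicates 1 and 3 (log2 differences -0.46 to -0.29, adjusted p 0.0502 to 0.144), and without double knockdown replicate 3 the difference was -0.29 (adjusted p 0.118 by limma). Col15a1 rose by 0.84 (adjusted p 0.0314 by limma), which became 0.62 without replicate 3 (adjusted p 0.0953 by limma) and was also lost without negative replicate 1 or 3 (adjusted p up to 0.133). Col18a1, whose collagen XVIII carries heparan sulfate, rose by 1.14 (SE 0.13, adjusted p 6.99e-05 by limma). Negative siRNA libraries had 8909, 8730 and 6778 normalized counts of Col18a1, Yap siRNA libraries 13597, 16009 and 11800, Wwtr1 siRNA libraries 10499, 11299 and 9759, and double knockdown libraries 17646, 19256 and 16448. No pair of these groups overlapped. Col4a2 was not analysed here.

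In the single knockdowns 1 of the 23 components rose with each siRNA. Leaving out each library gave 1 to 3 calls with Yap siRNA and 1 to 4 with Wwtr1 siRNA, the highest being reached without double knockdown replicate 3. With Yap siRNA it was Col18a1 (0.76, SE 0.13, adjusted p 0.00857 by limma), and with Wwtr1 siRNA it was Ntn4 (netrin-4, which binds laminin γ1, 0.89, SE 0.17, adjusted p 0.00731 by limma). The blocked fit of 9 libraries called 8 of them with Yap siRNA and 12 with Wwtr1 siRNA, beside 16.3% and 21.7% of all genes.

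The receptors of laminin and the dystrophin complex, which ties laminin through dystroglycan to the cytoskeleton, changed in 15 of 29 genes tested in the double knockdown (of 31 listed), 9 higher and 6 lower, with a median log2 difference of -0.06. Without double knockdown replicate 3, 7 rose and 5 fell. The integrin chains of the main laminin receptor fell. For Itga6, negative siRNA libraries had 3071, 3318 and 4772 normalized counts, Yap siRNA libraries 1092, 1505 and 1499, Wwtr1 siRNA libraries 2468, 3202 and 3804, and double knockdown libraries 1273, 1425 and 1553. Every library that had received Yap siRNA was below every other library.

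The Itga6 log2 difference was -1.43 with Yap siRNA (SE 0.19, adjusted p 0.00392 by limma) and -1.37 in the double knockdown (SE 0.19, adjusted p 0.000292 by limma). Itgb1, the β1 chain that pairs with it, was 118637, 122130 and 148952 normalized counts in the negative siRNA libraries and 67059, 70961 and 56179 in the double knockdown, a log2 difference of -1.004 (SE 0.13, adjusted p 0.000142 by limma). Itga7, the α7 chain of muscle laminin receptors, moved the other way, with 0.69 with Wwtr1 siRNA (adjusted p 0.00745 by limma) and 0.41 in the double knockdown (adjusted p 0.0324 by limma). The latter call was lost without negative replicate 2 or 3 or double knockdown replicate 1 or 2 (log2 differences 0.32 to 0.41, adjusted p 0.0718 to 0.122). Itga1, a collagen and laminin receptor chain, fell by 0.92 (adjusted p 0.0372 by limma), and was lost without negative replicate 2 or 3, Wwtr1 replicate 2 or double knockdown replicate 2 or 3 (log2 differences -0.97 to -0.65, adjusted p 0.0512 to 0.142).

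Dag1, which encodes dystroglycan, the receptor of agrin and the laminin α chains, differed little, by -0.13 in the double knockdown (SE 0.11, adjusted p 0.404 by limma) at 32166, 30939 and 22754 normalized counts against 30233, 31438 and 31315. Dmd (dystrophin) fell to 2338, 1911 and 1581 normalized counts in the double knockdown from 3577, 3545 and 3748 with negative siRNA, a log2 difference of -0.92 (SE 0.15, adjusted p 0.000705 by limma). Sntb1 (a syntrophin, 0.92, adjusted p 0.00122 by limma) and Sgcb (β-sarcoglycan, 0.76, adjusted p 0.000679 by limma) rose. Bcam, a receptor of the laminin α5 chain, rose by 1.00 (SE 0.12, adjusted p 0.000125 by limma) and Gpc1 (glypican-1) by 0.98 (SE 0.19, adjusted p 0.0019 by limma).

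With Yap siRNA 2 of the 29 receptor and dystrophin genes changed, Itga6 lower and Sntb1 higher (0.79, adjusted p 0.0205 by limma). Leaving out each library gave 1 call without negative replicate 3 to 4 without double knockdown replicate 3 (2 higher and 2 lower). With Wwtr1 siRNA 5 rose and none fell: Sdc4 (syndecan-4, 1.01, adjusted p 0.0023 by limma), Itga3 (the α3 laminin receptor chain, 0.87, adjusted p 0.00256 by limma), Sntb1 (0.87, adjusted p 0.00639 by limma), Itga7 and Sgcb (0.57, adjusted p 0.0128 by limma). The Sntb1 call with Yap siRNA was lost without negative replicate 3 or Yap replicate 1 or 2 (0.62 to 0.80, adjusted p 0.0738 to 0.0862), and the Sgcb call without negative replicate 3 or Wwtr1 replicate 1 or 2 (0.48 to 0.55, adjusted p 0.055 to 0.0604). With the replicate block in those 9 libraries, 10 passed with Yap siRNA and 13 with Wwtr1 siRNA, where calls rose over all genes too, to 16.3% and 21.7%. The names outside the rule are given because the counts are small.

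**Figure D3:**
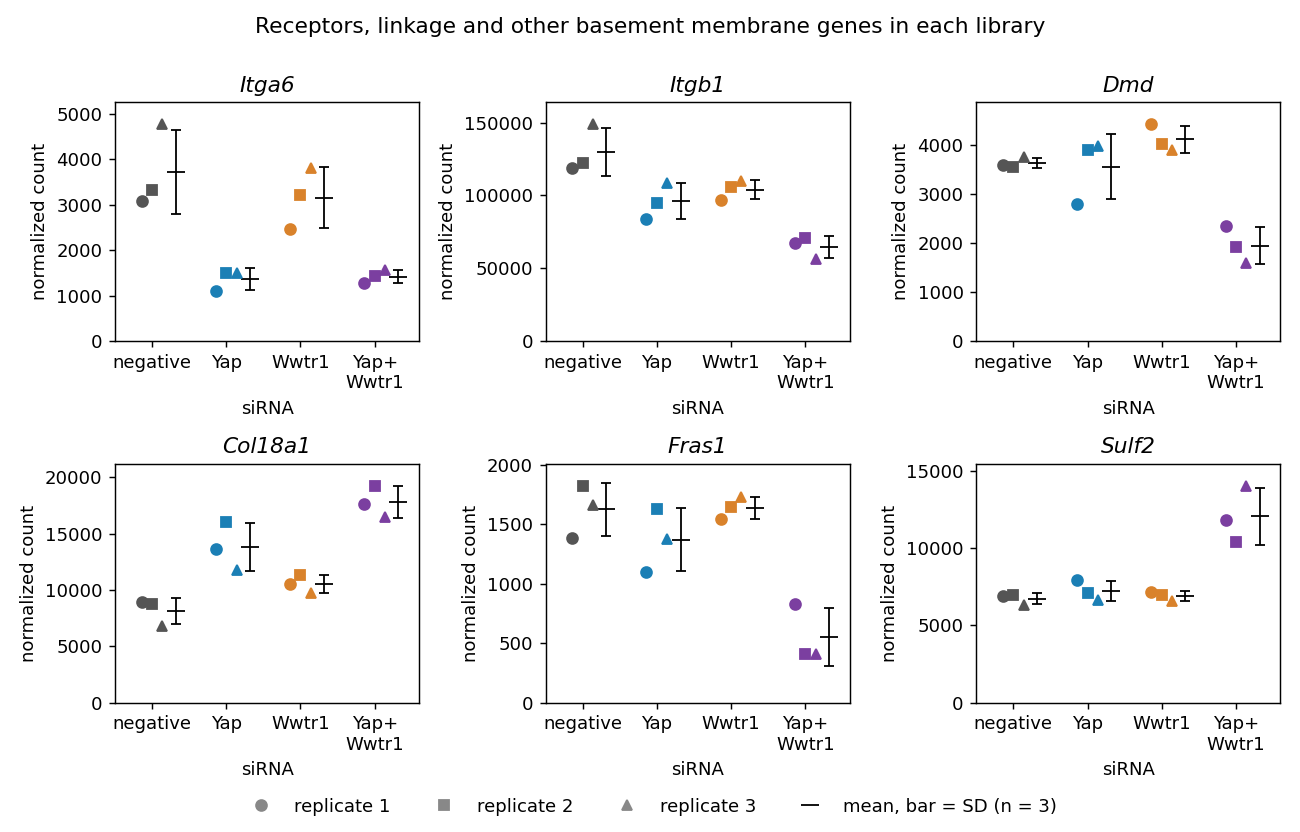
Normalized counts (vertical axes, from 0) of Itga6, Itgb1, Dmd, Col18a1, Fras1 and Sulf2 in each of the 12 libraries, by siRNA group (horizontal axes), with replicate symbols and mean with SD (n = 3) in black. Itga6 is low in both groups given Yap siRNA, Dmd and Fras1 are low and Sulf2 is high in the double knockdown.

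The enzymes that add to dystroglycan the sugar chain that binds laminin and agrin were tested for 11 genes of 14 names considered, which hold both older and newer symbols. Of these, 3 rose and 1 fell in the double knockdown, a share of 36.4% that was near the 32.8% of all genes called. Pomgnt2 rose by 1.00 (adjusted p 0.000481 by limma), Pomk by 0.36 (adjusted p 0.0107 by limma) and Rxylt1 by 0.27 (adjusted p 0.0119 by limma). Pomgnt1 fell by 0.29 (adjusted p 0.0377 by limma). The Pomgnt1 call was lost without negative replicate 2 or 3, Wwtr1 replicate 2 or double knockdown replicate 2 or 3 (log2 differences -0.31 to -0.23, adjusted p 0.0509 to 0.149). With Yap siRNA 0 of 11 passed by limma, and with Wwtr1 siRNA 1 did (Rxylt1, 0.28, adjusted p 0.0309 by limma, lost without any negative or Wwtr1 siRNA library at adjusted p of 0.0536 to 0.119). At an unadjusted p under 0.05 there were 2 with Yap siRNA, and leaving out each library gave 0 to 1 calls. The blocked fit of 9 libraries called 1 with Yap siRNA and 2 with Wwtr1 siRNA, beside 16.3% and 21.7% of all genes.

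The enzymes that make and modify heparan sulfate, the chains carried by agrin and perlecan, changed in 14 of 18 genes tested in the double knockdown, 11 higher and 3 lower, with a median log2 difference of 0.33. Leaving out double knockdown replicate 3 gave the same counts. Sulf1 and Sulf2, which remove sulfate from the chains outside the cell, rose by 1.15 (adjusted p 0.000234 by limma) and 0.83 (adjusted p 0.000133 by limma). Hpse (heparanase, which cuts the chains, 0.92, adjusted p 0.0035 by limma) and Hs2st1 (a sulfotransferase, 0.91, adjusted p 1.1e-05 by limma) rose too. Hs6st1 (-1.17, adjusted p 9.4e-05 by limma) and Hs6st2 (-0.42, adjusted p 0.0037 by limma), which add sulfate at another position, and Ext1 (-0.51, adjusted p 0.000991 by limma), which lengthens the chain, fell.

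With Yap siRNA 2 of the 18 heparan sulfate genes changed, Ext1 lower (-0.54, adjusted p 0.00767 by limma) and Hpse higher (0.81, adjusted p 0.0389 by limma), and with Wwtr1 siRNA 6 changed, 4 higher and 2 lower. Among the 6 were Ndst1 (0.79, adjusted p 0.00879 by limma) and Hs6st1 (-0.52, adjusted p 0.0349 by limma). The Hpse call was lost without negative replicate 2 or 3, Yap replicate 1 or 2, Wwtr1 replicate 2 or double knockdown replicate 2 (0.70 to 0.82, adjusted p 0.0502 to 0.156), and the Hs6st1 call without any negative library or Wwtr1 replicate 1 or 2 (-0.59 to -0.40, adjusted p 0.0516 to 0.136). Leaving out each library gave counts of 2 to 6 with Wwtr1 siRNA, the lowest without negative replicate 1. In the blocked fit of 9 libraries 5 passed with Yap siRNA and 8 with Wwtr1 siRNA, beside 16.3% and 21.7% of all genes.

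**Figure D4:**
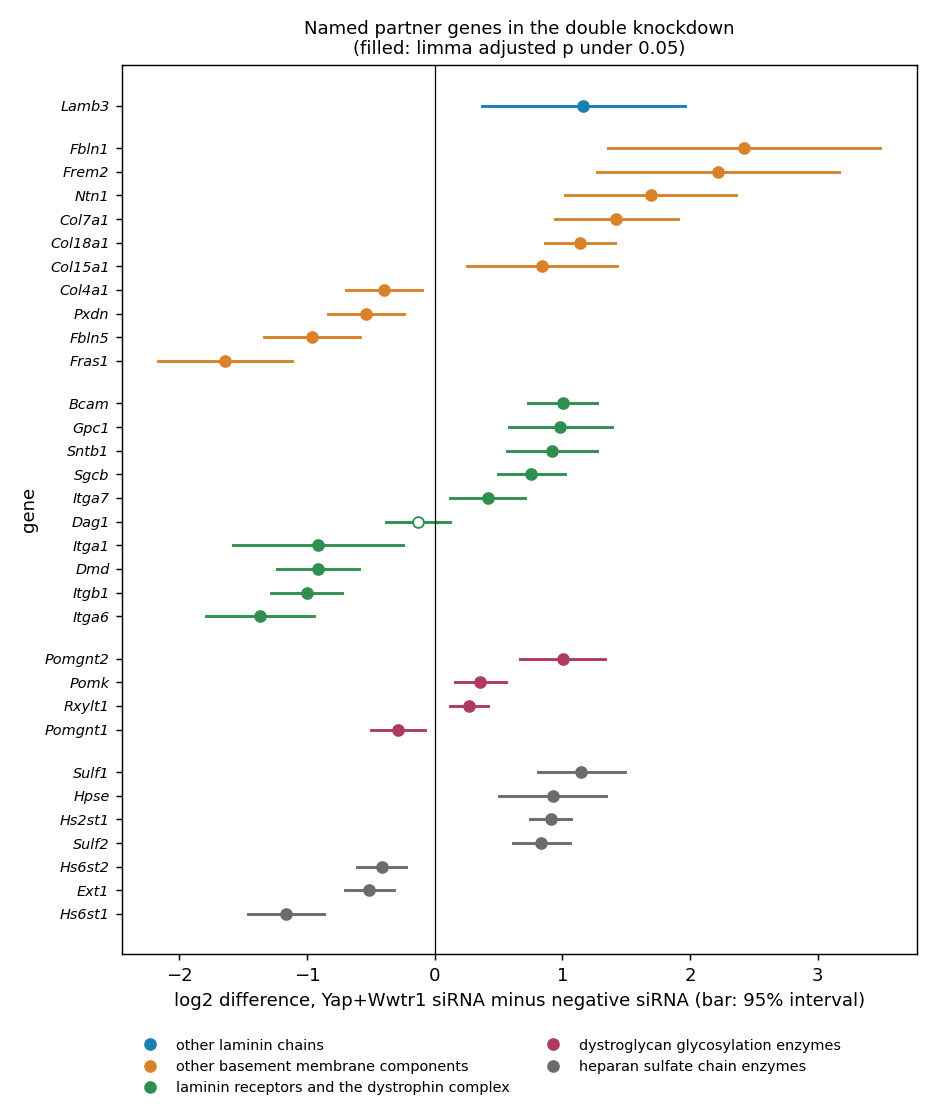
Log2 difference between the double knockdown and negative siRNA (horizontal axis) for the named genes of the 5 lists around the members (rows, coloured by list), with 95% intervals from limma and filled symbols at an adjusted p under 0.05. Fbln1, Frem2 and Ntn1 are farthest to the right, and Fras1 and Itga6 farthest to the left.

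Of the genes that the naming rule took from these 5 lists and that changed in the double knockdown, all but Lamb3, Col4a1, Col15a1, Itga1 and Pomgnt1 also passed without double knockdown replicate 3. In that fit the log2 differences were -1.44 for Itga6, -0.91 for Itgb1, -0.78 for Dmd and -1.48 for Fras1. Bcam was at 1.14, Gpc1 at 1.24, Col18a1 at 1.19, Sulf1 at 1.01 and Sulf2 at 0.72, and Dag1, not called in either fit, was at 0.03.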

How the data were processed

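Cardiac fibroblasts were isolated from rats at postnatal day 2, and RNA was sequenced in 3 libraries for each of 4 siRNA groups. Per the study's methods and the submitters' processing notes, the authors trimmed reads with Trim Galore 0.6.5, aligned them to rn6 with HISAT2, assembled transcripts with StringTie and used DESeq2 for testing. Deposited values, signal by unit, are counts that the authors divided by one size factor per library. In each library the values were whole multiples of one step (within 0.01 step), with totals of 33.9 to 41.1 M steps. Whether a step is a read is not known, so no count model was run, and intervals rest on the spread between libraries. Deposited tables of fold changes and p-values made by the authors were not used.

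Groups and replicate numbers came from the sample titles. All 12 libraries entered one limma 3.58.1 fit in R 4.3.3 (lmFit, contrasts, eBayes with a trend) on log2(normalized count + 1), without covariates, for genes with a mean of at least 10. This scale understates the change of low genes. Tests were two-sided, with Benjamini-Hochberg adjustment over all 11871 genes and a threshold of 0.05. The steps were tested on simulated data. The members and lists were chosen with earlier results of these data known. Named genes were the members, Yap1, Wwtr1, Col4a1, Col15a1, Col18a1, Itgb1, Itga6, Itga7 and Dag1 (the rule also lists Col4a2, not analysed here), and from each list around the members up to 4 rises and 4 falls in the double knockdown, taken from called genes whose mean was 100 or more. The 5 genes most like the member with the largest double knockdown difference and the 2 highest genes of each marker list were also named. A few genes of the lists are not reported here and were left out of the list counts and sums.

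Same-numbered libraries deviated together in the negative, Yap and Wwtr1 siRNA groups (correlations of deviations over genes from 0.104 to 0.276, all over the limit of 0.1). With the double knockdown the correlations were -0.127 to 0.18, and no group passed the limit with it at every number. Those between Wwtr1 siRNA and the double knockdown were all above 0, from 0.068 to 0.18. Per the methods each replicate came from other litters, so numbers may mark shared litters. Libraries of one group were compared by a chi-square per gene, taking steps as counts (20 to 126), and no pair held the same values. Promoter windows came from RefSeq assembly GRCr8, leaving out the 50 bases after the gene start. Transcript lengths were not used here, so levels of single genes were not compared with each other. Whether counting used strand is not given in the sources used here.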

Additional observations from a re-analysis of the deposited data

Results flagged for a closer look

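No member was flagged. Of the genes listed around them, 4 had an effect of one siRNA that differed with and without the other, by the limma interaction test over all genes. Sdc2 (syndecan-2, a heparan sulfate proteoglycan of the cell surface) was 17371 to 23776 normalized counts with negative siRNA, 18578 to 21241 with Yap siRNA, 19381 to 23287 with Wwtr1 siRNA and 10648 to 12881 in the double knockdown, with an interaction of -0.823 on the log2 scale (SE 0.17, adjusted p 0.0454 by limma). Dmd (dystrophin) had an interaction of -1.05 (SE 0.21, adjusted p 0.042 by limma), with 1581 to 2338 normalized counts in the double knockdown and 2795 to 4417 in the other groups. Hs6st2 had -0.73 (SE 0.12, adjusted p 0.0202 by limma), with 4205 to 4929 normalized counts in the double knockdown and 5851 to 7551 elsewhere. Sulf2 had 0.697 (SE 0.15, adjusted p 0.0475 by limma), with 10383 to 14037 normalized counts in the double knockdown and 6295 to 7957 elsewhere. In all 4 genes every double knockdown library lay outside the range of the other 9 libraries. The same values picked these genes, so this separation adds no support to the interaction calls. Leaving out one library kept the interaction call of Sdc2 in 2 of 12 cases, of Dmd in 3, of Sulf2 in 3 and of Hs6st2 in 8, with interactions of -0.96 to -0.73 for Sdc2, -1.21 to -0.91 for Dmd, 0.58 to 0.80 for Sulf2 and -0.81 to -0.66 for Hs6st2. Over all genes 1.03% passed the interaction test.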

How the results depend on the processing

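Over 42 differences of the 6 members, 14 passed the threshold, and 4 of these passed under every alternative (Lamc1 between Yap and Wwtr1 siRNA, Nid2 in the double knockdown against negative and against Wwtr1 siRNA, and Agrn in the double knockdown against negative siRNA). No called difference changed sign. Alternatives were pseudocounts of 0.1 and 10, no filter and a mean of at least 100, TMM and upper-quartile scaling, the compared groups alone, no trend, the replicate block and each library left out. The scalings moved the median of all genes by at most 0.027 (log2). edgeR and DESeq2 were planned on recovered reads and were not run. Alternatives for the counts of the other lists were chosen after seeing the data.

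With the replicate block over all 12 libraries the count of members called with Yap siRNA was 2 in place of 1, Agrn passed with Yap siRNA (adjusted p 0.0486) and Wwtr1 siRNA (0.0335), Lama5 passed between Yap and Wwtr1 siRNA (0.0337) and, with Lama4, between the double knockdown and Yap siRNA (0.0308 and 0.0137), and Nid2 missed there (0.0507). In the blocked fit of 9 libraries the counts were 2, 4 and 4 with Yap siRNA, with Wwtr1 siRNA and between them. The block changed no other call among the members. With no trend the counts were 0 with Yap siRNA, 1 with Wwtr1 siRNA, 1 between them, and 1 each for the double knockdown against Yap and against Wwtr1 siRNA. With the compared groups alone the latter pair were 1 and 1. The cause was not tested.

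Leaving out each library gave 0 to 2 members with Yap siRNA, 0 to 2 with Wwtr1 siRNA, 2 to 3 in the double knockdown, 1 to 3 between Yap and Wwtr1 siRNA, 1 to 3 for the double knockdown against Yap siRNA and 1 to 3 against Wwtr1 siRNA. Uncalled differences near 0 changed sign when a library was left out: Lama4 with Yap siRNA (-0.085 to 0.229; -0.078 without negative replicate 1 and -0.011 without Yap replicate 3), Nid2 with Yap siRNA (-0.22 to 0.004), Lamb2 in the double knockdown (-0.05 to 0.053, and 0.002), Agrn between Yap and Wwtr1 siRNA (-0.218 to 0.155, with 0.087 and 0.03), Lama5 between the double knockdown and Wwtr1 siRNA (-0.142 to 0.108, and 0.022), Dag1 in the double knockdown (-0.224 to 0.026), and the interactions of Lamc1 (-0.011 to 0.193) and Agrn (-0.155 to 0.217, with -0.046 and -0.017).

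Over all genes the count with Yap siRNA was 570, 111 without Yap replicate 1, 294 with no trend, 874 with the block and 1917 in the blocked fit of 9 libraries. With Wwtr1 siRNA it was 1064, 548 without Wwtr1 replicate 2 and 2559 in that blocked fit, and between Yap and Wwtr1 siRNA 1044, 434 without Wwtr1 replicate 2 and 2711. The double knockdown against Yap siRNA gave 1637, 751 without Yap replicate 3 and 769 with the compared groups alone, and against Wwtr1 siRNA 2359 and 1292 without Wwtr1 replicate 3. The interaction gave 122, 31 without Wwtr1 replicate 2, 60 with no trend and 231 with the block. With 3 libraries a group, the precision of each difference is that of its printed interval.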
